A study of Mus musculus with 36 samples.

Results

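Neutrophil genes were followed by RNA sequencing in 3 organs (heart, kidney and liver) taken from males of the inbred mouse strain C57BL/6NCrl. The 9 genes were S100a8, S100a9, Retnlg, Slfn4, Ngp, Camp, Ly6g, Cxcr2 and Csf3r, out of 78239 genes counted. They were chosen by their counts in heart, where several of them had been seen to lie lower at 12 than at 8 weeks, and were then found by symbol. The heart values of the 9 genes by age are therefore given as a description without a test. Tests of these genes are given for kidney, for liver and between tissues, and tests in heart only for genes of other lists. All mice were wild type. Tissue was taken at an age of 8, 10 or 12 weeks, with 4 libraries in each of the 9 groups of tissue and age and 36 libraries in all. The mice were bled before the organs were taken, and the methods name no step that washed blood out of the organs. Cells of the tissue and cells of blood left in its vessels may therefore have been measured together.

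Neutrophils are short-lived granulocytes of the blood that are made in the bone marrow and are among the first cells to enter injured or infected tissue. Their granule proteins are made in a fixed order: the genes of the primary granules are read early, in promyelocytes, those of the specific granules in myelocytes, and genes such as Retnlg and Cxcr2 in mature cells. Release from the marrow is driven by granulocyte colony-stimulating factor through its receptor, and chemokines of the CXC family then draw the cells into tissue. S100a8 and S100a9 encode the 2 chains of calprotectin, the most abundant protein of the neutrophil cytosol, and monocytes make it too. Retnlg encodes a secreted protein of the resistin family, and Slfn4 a Schlafen protein that is made by myeloid cells and induced by interferon. Ngp and Camp encode proteins of the specific granules, Camp being the precursor of the antimicrobial peptide of the cathelicidin family. Ly6g encodes the surface protein that defines mouse neutrophils in cell sorting. Cxcr2 is the receptor for chemokines such as Cxcl1, and Csf3r the receptor for granulocyte colony-stimulating factor.

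On GRCm39, S100a8 lies on chromosome 3 at 90567118 to 90578128 on the plus strand, and S100a9 nearby at 90599931 to 90603071 on the minus strand. Ngp (chromosome 9, 110248815 to 110252086, plus strand) and Camp (chromosome 9, 109676442 to 109678685, minus strand) lie on the same chromosome. Retnlg lies on chromosome 16 at 48692547 to 48694862, Slfn4 on chromosome 11 at 83066012 to 83081042, Ly6g on chromosome 15 at 75027089 to 75030982, Cxcr2 on chromosome 1 at 74193150 to 74200405 and Csf3r on chromosome 4 at 125918262 to 125938236, all on the plus strand. All 9 are protein-coding genes. Csf3r alone overlaps another annotated gene, the long non-coding RNA Gm32908 on the opposite strand, and as the libraries hold no strand, read pairs of both would not be told apart.

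The stretches of 250 bases before the start of the main transcript are shown for 4 genes, because S100a8 and S100a9 had the highest levels per length of exon in heart and Ngp and Camp, genes of an earlier stage, carry almost none. Capitals mark the letters TTGCNNAA or, read on the other strand, TTNNGCAA, which C/EBP factors of the granulocyte lineage can bind, and GAGGAA or TTCCTC, which the myeloid factor PU.1 can bind. The sequences run 5′ to 3′ on the strand of the gene, at chr3:90576035-90576284 (plus) for S100a8, chr3:90603072-90603321 (minus) for S100a9, chr9:110248565-110248814 (plus) for Ngp and chr9:109678686-109678935 (minus) for Camp. The main transcript of S100a8 starts inside the annotated gene, since a longer transcript begins upstream.
S100a8: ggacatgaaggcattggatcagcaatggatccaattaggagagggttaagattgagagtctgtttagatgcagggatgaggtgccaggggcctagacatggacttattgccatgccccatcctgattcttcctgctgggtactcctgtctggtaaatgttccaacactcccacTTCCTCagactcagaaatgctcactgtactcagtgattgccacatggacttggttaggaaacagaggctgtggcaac
S100a9: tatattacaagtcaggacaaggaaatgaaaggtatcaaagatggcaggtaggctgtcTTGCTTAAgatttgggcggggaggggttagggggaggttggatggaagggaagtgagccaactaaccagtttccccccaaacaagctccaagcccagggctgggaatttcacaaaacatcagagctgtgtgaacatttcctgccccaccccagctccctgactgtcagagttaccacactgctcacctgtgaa
Ngp: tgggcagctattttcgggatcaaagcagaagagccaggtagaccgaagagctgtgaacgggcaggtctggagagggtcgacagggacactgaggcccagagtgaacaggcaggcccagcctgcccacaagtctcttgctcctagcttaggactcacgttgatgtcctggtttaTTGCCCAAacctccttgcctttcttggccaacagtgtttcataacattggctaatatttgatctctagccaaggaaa
Camp: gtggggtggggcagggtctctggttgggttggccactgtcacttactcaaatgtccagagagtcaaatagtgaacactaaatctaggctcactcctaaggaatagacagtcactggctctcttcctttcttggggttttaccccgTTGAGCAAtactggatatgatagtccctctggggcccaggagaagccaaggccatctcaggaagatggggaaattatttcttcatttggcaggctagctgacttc

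S100a8 held TTCCTC with its first letter 77 bases before the start, S100a9 held a C/EBP word at 193 bases, Ngp at 77 bases and Camp at 105 bases. Over all 9 genes, a C/EBP word stood in 4 stretches (S100a9, Ngp, Camp and Ly6g), against 9.3% of 21770 stretches before the starts of protein-coding genes. A PU.1 word stood in 3 (S100a8, Ly6g and Cxcr2), against 22.9% of all. TATAAA stood in 2 (Slfn4 and Ly6g), against 8.0% of all. A match of letters is given here as a description of the sequence and not as a bound site.

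Between 21031599 and 33637390 read pairs were counted per library, so that 3 counts, taken here as the limit that a count of 0 allows, correspond to between 0.0892 and 0.143 CPM (counts scaled to 1000000 counted pairs). The 4 libraries of a group are biological replicates according to the methods. At this depth the 9 genes fell into 2 classes in heart. S100a8, S100a9, Retnlg, Slfn4, Cxcr2 and Csf3r had a count above 0 in at least 10 of the 12 heart libraries. Ngp never exceeded 2 counts in a heart library, Camp 3 counts and Ly6g 3 counts. Ly6g, the defining surface marker, was at 0 in 8 of 12 heart, 11 of 12 kidney and 9 of 12 liver libraries. The label of neutrophil genes thus rested on markers of mature cells and on genes that monocytes share, while Ly6g itself was at or near its limit of detection.

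Scaled by length, S100a8 stood highest in heart with 1.13 CPM per kilobase of exon, followed by S100a9 with 0.823, Csf3r with 0.268, Retnlg with 0.243, Cxcr2 with 0.0999 and Slfn4 with 0.0815. Ngp, Ly6g and Camp lay at 0.0241, 0.0218 and 0.0133 CPM per kilobase. Even S100a8 therefore rested on 317 counts over all 12 heart libraries, and Retnlg on 75.

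**Figure D1:**
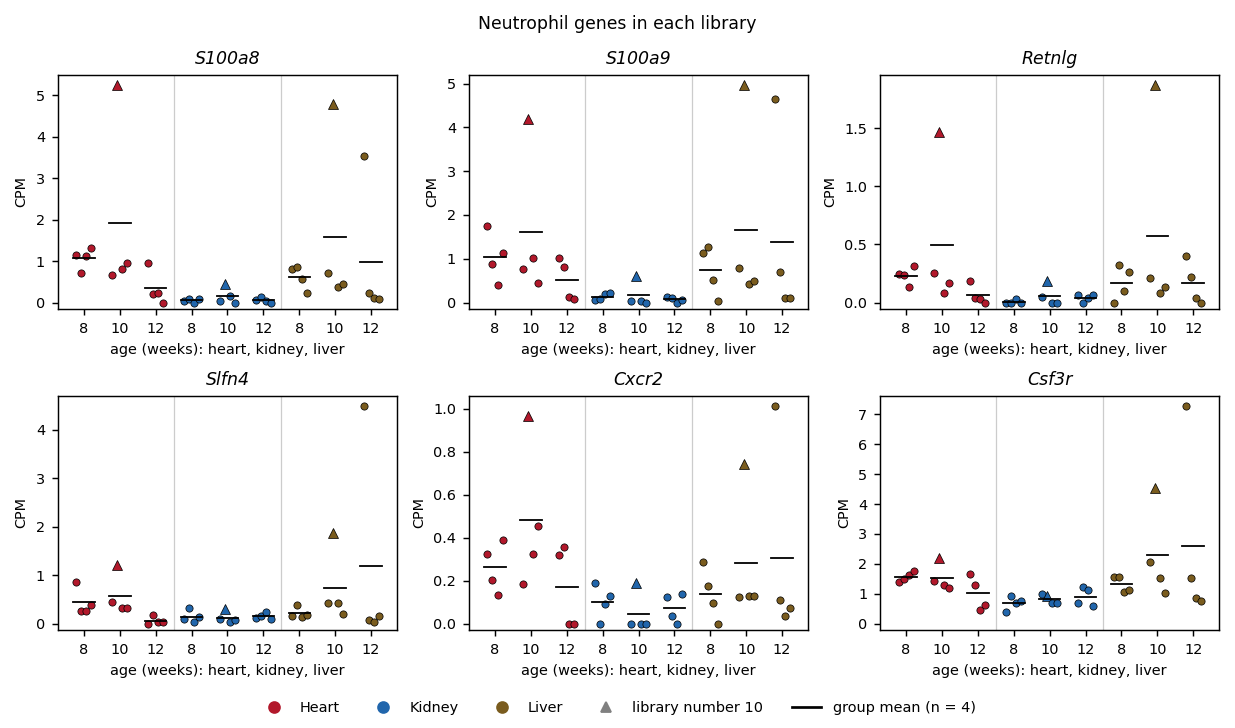
CPM of the 6 neutrophil genes with regular counts, in each of the 36 libraries. The horizontal axis gives the age in weeks within heart (red), kidney (blue) and liver (brown), bars mark the mean of 4 libraries, and triangles mark the libraries with the number 10. S100a8 was at 5.24 CPM in the heart library with this number and between 0.66 and 0.95 CPM in the other 10-week heart libraries.

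Retnlg and Cxcr2 passed the count filter in heart only through the 10-week group, in which replicate 2 was high. In heart at 8 weeks, S100a8 gave 28, 21, 25 and 34 counts in the 4 libraries, or 1.14, 0.709, 1.12 and 1.32 CPM. At 10 weeks it gave 18, 114, 20 and 23 counts, or 0.66, 5.24, 0.806 and 0.95 CPM. At 12 weeks it gave 21, 6, 7 and 0 counts, or 0.961, 0.213, 0.235 and 0 CPM. Replicate 1 at 12 weeks thus lay among the 8-week libraries while the other 3 lay below all of them. The fitted log2 fold change at 12 against 8 weeks was -1.70 ± 0.77 (SE).

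S100a9, the partner chain, gave 43, 26, 9 and 29 counts at 8 weeks, 21, 91, 25 and 11 at 10 weeks and 22, 23, 4 and 2 at 12 weeks. Its ranges at 8 weeks (0.402 to 1.74 CPM) and at 12 weeks (0.0744 to 1.01 CPM) overlapped. The fitted log2 fold change at 12 against 8 weeks was -1.10 ± 0.72 (SE).

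Retnlg followed the same libraries at a lower level, with 6, 7, 3 and 8 counts at 8 weeks, 7, 32, 2 and 4 at 10 weeks and 4, 1, 1 and 0 at 12 weeks. Only 1 heart library held 10 counts or more. At 12 against 8 weeks its fitted log2 fold change was -1.97 ± 1.02 (SE), with an overlap between replicate 1 at 12 weeks (0.183 CPM) and the lowest 8-week library (0.134 CPM).

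Slfn4 gave 21, 8, 6 and 10 counts at 8 weeks, 12, 26, 8 and 8 at 10 weeks and 0, 5, 1 and 1 at 12 weeks. All 12-week libraries (0 to 0.178 CPM) lay below all 8-week libraries (0.268 to 0.851 CPM) and all 10-week libraries (0.322 to 1.2 CPM). No other of the 9 genes was free of overlap at 12 against 8 weeks. Over all 15137 genes kept in heart, 4.76% lay lower at 12 than at 8 weeks without overlap, and 2.07% lower at 12 than at 10 weeks. The fitted log2 fold change of Slfn4 was -2.70 ± 0.74 (SE) against 8 weeks and -3.05 ± 0.72 (SE) against 10 weeks. It was the 0 counts of replicate 1 at 12 weeks that set Slfn4 apart, since this library held 21 counts of S100a8.

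The receptors had smaller fold changes. Cxcr2 gave 8, 6, 3 and 10 counts at 8 weeks, 5, 21, 8 and 11 at 10 weeks and 7, 10, 0 and 0 at 12 weeks, with a fitted log2 fold change of -0.71 ± 0.80 (SE) at 12 against 8 weeks. Csf3r, the most evenly detected of the 9 genes, gave 34, 44, 36 and 45 counts at 8 weeks, 39, 48, 32 and 29 at 10 weeks and 36, 36, 14 and 17 at 12 weeks. Its log2 fold change was -0.68 ± 0.33 (SE), and replicates 3 and 4 at 12 weeks (0.47 and 0.632 CPM) were below all other heart libraries.

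Ngp gave between 0 and 2 counts in every heart library, with 4, 3 and 3 counts in all at 8, 10 and 12 weeks. Camp gave 1 count in all at 8 weeks, 0 at 10 weeks and 3 at 12 weeks. Ly6g gave 2, 4 and 0. A difference between ages was not detectable at this depth for these 3 genes, and they did not pass the filter on low counts.

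All 6 genes that passed the filter had a fitted log2 fold change below 0 in heart at 12 against 8 weeks, with a median of -1.40 against 0 over all genes kept, 49.9% of which lay below 0. At 12 against 10 weeks all 6 were below 0 too, with a median of -2.11, and 49.3% of all genes were. The choice of the genes used this contrast, and nothing is read from the count. The sum of the 9 genes was 3.75 to 5.72 CPM at 8 weeks and 4.12, 2.95, 1.04 and 0.744 CPM in the 4 libraries at 12 weeks. The 12-week group was therefore uneven, with a first library inside the 8-week range and the others below it. Summed markers of red cells, in the same 12-week libraries, were 601, 197, 291 and 230 CPM, and those of platelets 12.2, 7.61, 7.32 and 7.44 CPM. Both blood lists were thus highest in the library where the neutrophil genes were highest, and their part in the lower values was not tested. Of these lists, Hba-a1 (hemoglobin alpha) averaged 366 CPM and Pf4 (platelet factor 4) 6.89 CPM over the heart libraries. In bulk tissue, fewer neutrophils and less RNA per neutrophil cannot be told apart.

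**Figure D2:**
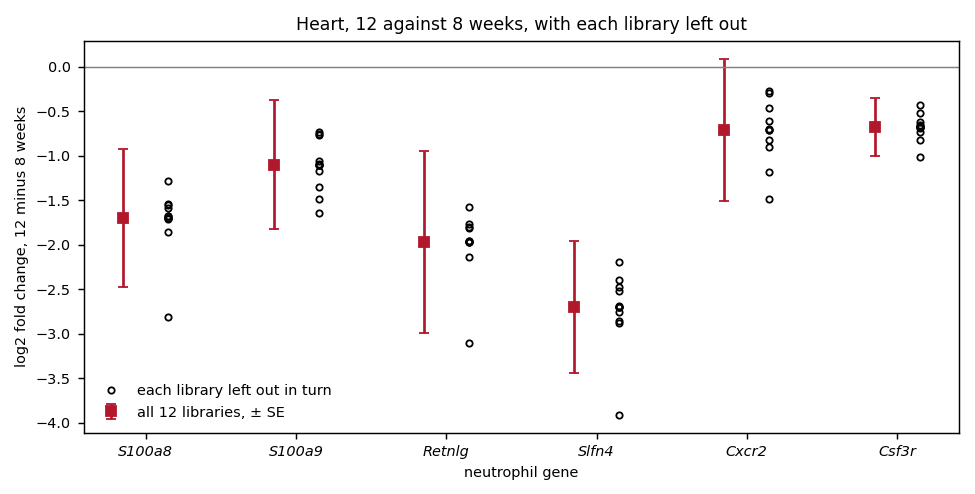
Fitted log2 fold changes in heart at 12 against 8 weeks. Squares give the value from all 12 libraries with its standard error, and open circles the values with each heart library left out in turn. All circles lay below 0, from -0.27 for Cxcr2 to -3.91 for Slfn4.

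The fits were repeated without single libraries, as a description, since the choice of the genes used the same values. With each of the 12 heart libraries left out, S100a8 lay between -2.81 and -1.29, S100a9 between -1.64 and -0.74, Slfn4 between -3.91 and -2.20, Cxcr2 between -1.49 and -0.27, Retnlg between -3.11 and -1.58 and Csf3r between -1.02 and -0.43 on the log2 scale. Retnlg and Cxcr2 did not pass the filter without 10-week replicate 2. The size did depend on the 12-week libraries, as the lowest values of S100a8 and Retnlg (-3.11) came without replicate 1 and that of Slfn4 without replicate 2.

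At 10 against 8 weeks, 5 of the 6 genes were fitted higher, with log2 fold changes of 0.82 for S100a8, 0.60 for S100a9, 1.02 for Retnlg, 0.35 for Slfn4 and 0.82 for Cxcr2, while Csf3r was at -0.03. Over all genes kept, 50.9% were fitted lower. Without replicate 2 at 10 weeks only 4 genes passed the filter, and all 4 were fitted lower, with S100a8 at -0.42, S100a9 at -0.49, Slfn4 at -0.27 and Csf3r at -0.26. For S100a8, S100a9 and Slfn4, the higher fitted 10-week value thus depended on that library. Retnlg and Cxcr2 were not fitted without it, and Cxcr2 was at 0.183, 0.322 and 0.454 CPM in the other 10-week hearts and at 0.134 to 0.388 CPM at 8 weeks.

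The 10-week library in question has the number 10, and the libraries of kidney and liver with the same number stood out as well. In heart the 9 genes summed to 15.5 CPM there and to between 0.744 and 5.72 CPM in the other 11 libraries. In kidney the sum was 2.7 CPM against 0.75 to 1.66 CPM. In liver it was 19 CPM, and the other 10-week libraries lay between 2.44 and 4.31 CPM. The labels number the libraries alike across tissues but do not say that a number is a mouse.

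**Figure D3:**
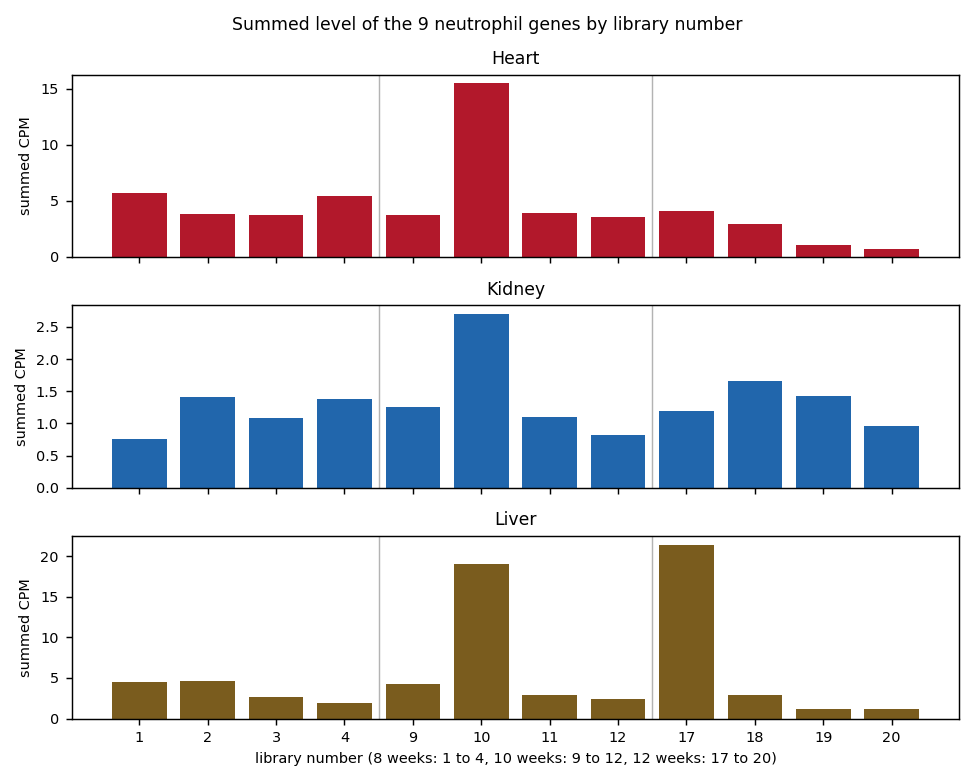
Summed CPM of the 9 neutrophil genes in each library, by library number, for heart, kidney and liver on scales of their own. Number 10 was the highest bar in heart (15.5 CPM) and kidney (2.7 CPM) and reached 19 CPM in liver, where number 17 (12 weeks, replicate 1) was at 21.4 CPM.

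In heart this library held the highest CPM of the 12 for S100a8, S100a9, Slfn4 and Csf3r, while it was the highest for 4.31% of all genes kept. Retnlg and Cxcr2 were highest there too, but they passed the filter only through this library, so nothing is read from it. S100a8 was at 5.24 CPM with a 95% exact Poisson interval of 4.32 to 6.30, which covers counting error only, and the next highest heart library was at 1.32 CPM. In liver, S100a8 and S100a9 were highest in number 10, which was the highest for 8.98% of all genes kept. Retnlg was highest there as well and passed the filter in liver only through this library. In kidney the only gene that passed the filter, Csf3r, was not highest there (9.47% of all genes kept were), but S100a8 with 12 counts, S100a9 with 16 and Retnlg with 5 each reached their kidney maximum. Number 10 held 39.3% of the summed CPM of S100a8 in heart, 40.2% in kidney and 37.6% in liver. For Csf3r the same shares were 13.5%, 9.68% and 18.2%.

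Some other genes of the neutrophil were high in the same libraries and others were not. Mmp8, neutrophil collagenase, gave 26 counts in heart number 10 and at most 7 in the other heart libraries, and 33 counts in liver number 10. Chil3, a granule protein also made by macrophages, was at 1.56 CPM in heart number 10 and at 1.55 CPM in liver number 10, its highest value in both tissues. Lcn2, neutrophil lipocalin, which hepatocytes also make in the acute phase, was at 272 CPM in liver number 10 and between 2.43 and 50.7 CPM in the other livers, but in heart number 10 it was at 7.82 CPM, inside the range of the other hearts. Mmp9 in heart number 10, at 1.24 CPM, was below its mean of 1.39 CPM over the hearts, and Lyz2, at 42.7 CPM, lay inside its range of 32.7 to 49 CPM. Hdc in liver number 10, at 7.37 CPM, was below its mean of 9.09 CPM over the livers. Most genes of the primary granules were at or near 0 there. Mpo (myeloperoxidase) and Elane (neutrophil elastase) gave 0 counts in heart number 10, and in liver number 10 they gave 0 and 1. Prtn3 (proteinase 3) was an exception in liver, with 3.89 CPM in number 10 against a mean of 0.794 CPM over the 12 livers.

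Markers of other cells moved in part with number 10. In heart number 10 the macrophage list summed to 215 CPM (139 to 203 in the other hearts) and the monocyte list to 58.2 CPM (31.2 to 51.5), and both were the highest of the 12. Red cell markers there were at 460 CPM, within the 197 to 886 CPM of the other hearts. Liver markers were at 16.5 CPM in heart number 10, led by Alb (albumin) with 10.3 CPM, and at 23.2 CPM in replicate 4 at 10 weeks, against 0.194 to 3.94 CPM in the other 10 hearts. Heart replicate 4 at 10 weeks had the higher sum of liver markers and 23 counts of S100a8. In liver number 10 macrophage markers summed to 446 CPM (127 to 357 in the other livers) and monocyte markers to 14.3 CPM (4.07 to 9.38). The part of these cells in the high values was not tested, nor was that of the source of the liver markers in heart.

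In liver, S100a8 gave 20, 24, 12 and 5 counts at 8 weeks, 17, 161, 9 and 14 at 10 weeks and 105, 6, 3 and 2 at 12 weeks. S100a9 gave 28, 36, 11 and 1, then 19, 167, 10 and 15, then 138, 19, 3 and 3. At each of the older ages a single library thus lay far above the rest, number 10 at 10 weeks and replicate 1 at 12 weeks, and the other 12-week libraries lay low. Retnlg gave 0, 9, 2 and 6 counts, then 5, 63, 2 and 4, then 12, 6, 1 and 0. Slfn4 gave 4, 11, 3 and 4 counts, then 10, 63, 10 and 6, then 133, 2, 1 and 4. Csf3r gave 38, 44, 22 and 25 counts, then 49, 152, 36 and 32, then 216, 42, 25 and 20.

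The high liver libraries differed in their makeup. In 10-week replicate 2, Retnlg was at 1.87 CPM and Slfn4 also at 1.87 CPM, while in 12-week replicate 1 Retnlg was at 0.404 CPM and Slfn4 at 4.48 CPM. Per count of S100a8 in the same library, Slfn4 gave 0.391 counts in the former and 1.27 in the latter, and between 0.2 and 0.588 in the other 5 livers with at least 10 counts of S100a8. Retnlg gave 0.391 and 0.114 counts per count of S100a8 in the 2 libraries. Cxcl2, a ligand of Cxcr2, was at 4.28 CPM in 12-week replicate 1 and at 0.713 CPM in 10-week replicate 2, with 0 to 0.251 CPM in the other livers. Clec4e, a C-type lectin receptor of activated myeloid cells, gave 51 and 17 counts in these 2 libraries and at most 4 elsewhere in liver. Macrophage markers were not raised in 12-week replicate 1 (166 CPM, the lowest of that age). Of the 5 genes that passed the filter in liver, Csf3r had its highest CPM in 12-week replicate 1, as did 10.8% of all genes kept. Slfn4 was highest there too, but it passed the filter only through the 10-week and 12-week groups, each with a very high library, so nothing is read from it. The heart and kidney libraries that share its number summed to 4.12 and 1.19 CPM over the 9 genes, inside the range of their tissues.

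None of the 5 genes that passed the filter in liver was called by edgeR's quasi-likelihood test at any pair of ages, against 0.239% of all genes at 12 against 8 weeks, 0.0204% at 10 against 8 and 0.0545% at 12 against 10. The lowest adjusted p of the 5 genes in edgeR was 0.387 at 12 against 8 weeks, 0.494 at 10 against 8 and 0.479 at 12 against 10. At an unadjusted p under 0.05 the count was 0 as well, where 15.1%, 14.3% and 14.1% of all genes passed. Limma-voom and DESeq2 called 0. At 12 against 8 weeks the fitted log2 fold change was 0.72 for S100a8, 0.93 for S100a9, -0.03 for Retnlg, 2.43 for Slfn4 and 1.02 for Csf3r. Without replicate 1 at 12 weeks, these became -2.15 for S100a8, -1.27 for S100a9, -1.32 for Slfn4 and -0.30 for Csf3r, so that 1 library set the direction. At 10 against 8 weeks all 5 were fitted higher (50.1% of all genes were fitted lower). Retnlg and Slfn4 passed the filter only through older groups with a very high library, which favoured a higher fit, and nothing is read from this count. Without replicate 2 at 10 weeks S100a8 was at -0.33 and S100a9 at -0.47, while Slfn4 was at 0.53 and Csf3r at 0.15. In simulated liver data of this size, 63% of genes changed 2-fold and 90% of genes changed 4-fold were found over all levels of expression. The changed genes were drawn at random from all genes kept, so these shares do not give the power for the low and uneven genes here.

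In kidney, S100a8 gave 1, 2, 0 and 3 counts at 8 weeks, 1, 12, 5 and 0 at 10 weeks and 2, 4, 1 and 0 at 12 weeks, and S100a9 1, 2, 6 and 7, then 1, 16, 1 and 0, then 4, 3, 0 and 2. Apart from number 10 these genes were near the limit of detection in kidney. Slfn4 gave between 1 and 8 counts in every kidney library and showed no such peak, with 8 counts both in number 10 and in replicate 2 at 8 weeks. Csf3r gave 8, 23, 22 and 24 counts, then 22, 25, 21 and 19, then 23, 37, 27 and 17. Csf3r alone passed the filter, and edgeR gave it adjusted p-values of 0.668 at 12 against 8 weeks, 0.779 at 10 against 8 and 0.837 at 12 against 10. Over all genes, 0.0567%, 0.929% and 0.482% were called in kidney at these pairs of ages. Its log2 fold change at 12 against 8 weeks was 0.38 ± 0.30 (SE) in kidney. The change at 12 against 8 weeks was also compared between kidney and liver in the model of all 36 libraries, and 0 of the 6 genes tested there were called by edgeR (lowest adjusted p = 0.645, 0 at an unadjusted p under 0.05, 0 by limma-voom and DESeq2), against 0.304% of all genes. The standard error of this log2 difference was 0.75 for Csf3r and between 1.58 (Slfn4) and 2.43 (S100a8) for the others, which had too few kidney counts for the filter. For those genes the test could hardly have found a difference, and the lack of a call does not show equal changes.

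Across the 9 groups, the mean level of S100a8 was highest in 10-week heart (1.91 ± 2.22 CPM, SD, n = 4), followed by 10-week liver (1.58 ± 2.14), 8-week heart (1.07 ± 0.258), 12-week liver (0.984 ± 1.70), 8-week liver (0.614 ± 0.290), 12-week heart (0.352 ± 0.420), and the kidney at 10 weeks (0.165 ± 0.203), 12 weeks (0.0588 ± 0.0556) and 8 weeks (0.056 ± 0.0427). No neighbours in this order were free of overlap, for S100a8 or for any other of the 9 genes. The order for Csf3r began with liver at 12 weeks (2.61 ± 3.13 CPM) and at 10 weeks (2.28 ± 1.55 CPM), then gave heart at 8 weeks (1.56 ± 0.159 CPM), and ended with kidney at 8 weeks (0.69 ± 0.233 CPM). Slfn4 was the only gene whose lowest group lay outside kidney among the 6 that passed the filter: 12-week heart, at 0.0621 ± 0.0789 CPM, was below 10-week kidney, at 0.124 ± 0.12 CPM.

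Between tissues, averaged over the 3 ages, heart and liver stood above kidney for these genes. S100a8 had a mean of 1.11 CPM in heart, 1.06 CPM in liver and 0.0934 CPM in kidney. In heart against kidney its log2 fold change was 3.83 ± 0.74 (SE, adjusted p = 1.61e-05, edgeR), and S100a9 followed with 3.38 ± 0.70 (SE), Retnlg with 2.94 ± 0.89 (SE), Cxcr2 with 2.36 ± 0.63 (SE) and Csf3r with 1.25 ± 0.31 (SE). These 5 of the 6 genes tested were called, and Slfn4 at 1.37 ± 0.75 (SE, adjusted p = 0.0871, edgeR) was not. The genes had been chosen by their counts in heart. In kidney only Csf3r had passed the filter, which favoured levels above kidney for the others. Nothing is therefore read from this count of calls. Since 86.1% of all 19716 genes were called in this comparison, and 39% of all genes were called higher in heart, a call is common here, and the median log2 fold change over all genes was -0.15. Slfn4 was called by limma-voom (adjusted p = 0.024) and DESeq2 (adjusted p = 0.0356) at nearly the same fold change, and without liver replicate 1 at 12 weeks, which enters only the shared estimate of the spread, its edgeR adjusted p was 0.0125. Retnlg lost its call without heart replicate 1 at 12 weeks (adjusted p = 0.0516, edgeR).

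In liver against kidney all 6 were called higher in liver, against 37% of all genes (83.1% were called in either direction), with log2 fold changes from 2.10 ± 0.30 (SE) for Csf3r to 4.29 ± 0.70 (SE) for S100a8. Here too only Csf3r had passed the filter in kidney, which favoured levels above kidney for the others. Kidney lay lowest in each case, and without number 10 of every tissue and liver replicate 1 at 12 weeks the 4 genes still tested (S100a8, S100a9, Slfn4 and Csf3r) were all called above kidney in both heart and liver. In that fit too, S100a8, S100a9 and Slfn4 passed the filter only through heart or liver groups, so nothing is read from this count. S100a8 was then at 3.79 for heart and 3.15 for liver, and Slfn4 at 1.46 and 1.48. Retnlg and Cxcr2 no longer passed the count filter.

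In heart against liver the 6 genes were fitted lower in heart, and 2 were called, Slfn4 at -1.45 ± 0.60 (SE, adjusted p = 0.0253, edgeR) and Csf3r at -0.85 ± 0.29 (SE, adjusted p = 0.0074, edgeR), where 84.2% of all genes were called in either direction and 42.2% lower in heart. Both calls were lost without liver replicate 1 at 12 weeks, where Slfn4 was at -0.20 (adjusted p = 0.72, edgeR) and Csf3r at -0.42 (adjusted p = 0.0796, edgeR). Without liver replicate 2 at 10 weeks or at 8 weeks Slfn4 also lost its call (adjusted p = 0.0978 and 0.0692, edgeR), leaving a count of 1.

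**Figure D4:**
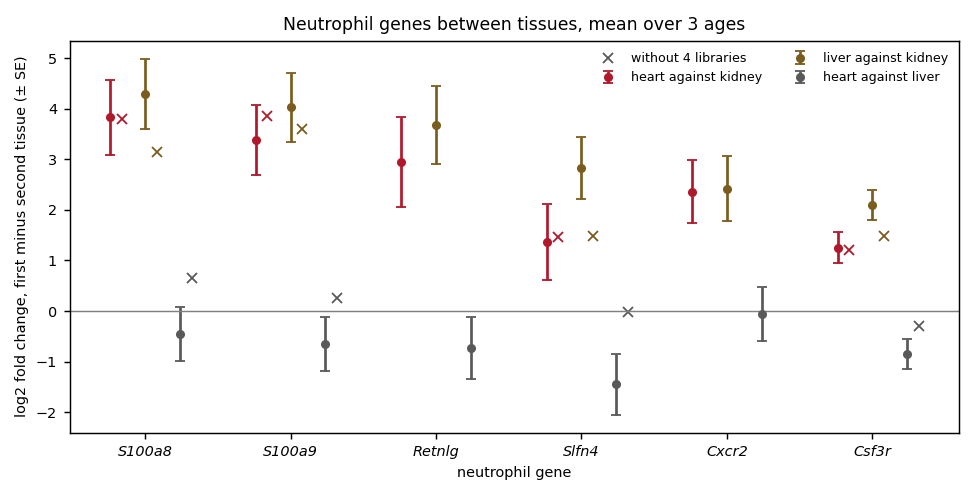
Log2 fold changes between tissues for the 6 genes tested, as the mean over 8, 10 and 12 weeks with its standard error. Crosses give the values without number 10 of every tissue and liver replicate 1 at 12 weeks, where Retnlg and Cxcr2 could not be fitted, and heart against liver moved from -1.45 to -0.02 for Slfn4.

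The other genes of the neutrophil were counted in lists. Of 8 genes of the primary granules and of precursors, 0 passed the filter in heart or kidney and 2 in liver. Those were Cebpe (8.52 CPM on average) and Prtn3 (0.794 CPM), while Mpo gave at most 2 counts in any of the 36 libraries and Elane at most 4. Of 8 genes of the specific granules, 4 were tested in heart, led by Lyz2 (lysozyme, shared with macrophages, 41.4 CPM) and Lcn2 (5.99 CPM). At 12 against 8 weeks in heart, all 4 were fitted lower with 0 called and a median of -0.62, against 0 over all genes, of which 4.56% were called. Over all genes kept, 49.9% were fitted lower. Pglyrp1 passed the filter only through the 8-week group, which favoured a lower fit at 12 weeks, and Chil3 only through the 10-week group. Nothing is therefore read from the shared direction. Lyz2 itself was at -0.03 ± 0.11 (SE) and Chil3 at -0.80 ± 0.74 (SE).

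Of 16 genes of mature neutrophils, 4 were tested in heart, and 2 were fitted lower and 2 higher at 12 against 8 weeks, with 0 called: Hdc (histidine decarboxylase) was at -0.56 ± 0.28 (SE), Itgam (CD11b) at 0.45 ± 0.28 and Mmp9 (gelatinase B) at 0.67 ± 0.39. These 4 genes thus did not share 1 direction, and several of them are also expressed by other cells. In liver 9 of the 16 were tested, all fitted higher at 12 against 8 weeks (50.7% of all genes were fitted lower) with 0 called. Clec4d and Clec4e passed only through 12-week replicate 1, with 43 and 51 counts there, so that their direction was set by it. The liver also held 230 CPM of Wfdc21 on average, a gene of this list that gave no more than 0.124 CPM in any heart library.

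All 6 subunits of the NADPH oxidase, the enzyme of the oxidative burst, were tested in every tissue and 0 were called at any pair of ages. In heart at 12 against 8 weeks 3 were fitted higher and 3 lower, with a median of -0.01. Cyba averaged 20.2 CPM in heart and Cybb 10.9 CPM. Of the other 6 Schlafen genes, all were tested in heart and 0 were called. Slfn5 averaged 99.4 CPM, Slfn2 7.83 CPM and Slfn3 3.01 CPM. Against the log2 fold change of -2.70 of Slfn4, Slfn5 was at 0.19 ± 0.10 (SE), Slfn2 at 0.09 ± 0.16, Slfn3 at 0.06 ± 0.17 and Slfn1 at -0.78 ± 0.57 at 12 against 8 weeks in heart. In the same comparison Slfn8 was at 0.45 ± 0.23 (SE) and Slfn9 at 0.42 ± 0.22 (SE). Schlafen genes resemble each other in sequence, and a read pair with more than 1 equal match was not counted.

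Of the 8 genes that attract or retain neutrophils, Cxcl12 (169 CPM in heart), the chemokine that holds them in the marrow, its receptor Cxcr4 (5.80 CPM) and Cxcl1 (0.649 CPM) led in heart. Cxcl12 was higher in heart at 12 against 8 weeks, by 0.50 ± 0.11 on the log2 scale (SE, adjusted p = 0.02, edgeR), without overlap, and at 10 against 8 weeks by 0.52 ± 0.11 (SE, adjusted p = 0.0275, edgeR), with overlap. Higher calls took in 2.36% and 0.76% of all genes, and 8.49% lay higher at 12 than at 8 weeks without overlap. With single libraries left out the adjusted p of Cxcl12 in edgeR reached 0.0675 (without 8-week replicate 4) and 0.101 (without 10-week replicate 4). Cxcl1, a ligand of Cxcr2, was the only gene of all lists called in kidney or liver. In kidney it was at 0.643 to 0.768 CPM at 8 weeks, at 0.935, 1.99, 2.33 and 1.74 CPM at 10 weeks and at 0.492 to 0.888 CPM at 12 weeks. The 10-week libraries lay above the others without overlap, with log2 fold changes of 1.29 ± 0.27 (SE, adjusted p = 0.0395, edgeR) at 10 against 8 weeks and -1.41 ± 0.27 (SE, adjusted p = 0.0385, edgeR) at 12 against 10 weeks. Calls took in 0.646% and 0.346% of all genes in these directions, and 5.24% and 5.96% were free of overlap. These calls of Cxcl1 held under 9 of 18 alternatives at 10 against 8 weeks and under 7 of 17 at 12 against 10 weeks. Limma-voom gave adjusted p-values of 0.0587 and 0.0584, and the highest with a library left out in edgeR were 0.132 (without 10-week replicate 3) and 0.129 (without 12-week replicate 2). In liver, Cxcl1 was at 142 CPM in number 10 and at 65.2 CPM in 12-week replicate 1, the highest of that tissue, against 4.85 to 38.2 CPM in the other livers.

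Markers of other blood cells in heart had fitted changes of both signs. Of the monocyte list 3 of 5 were tested, all fitted higher at 12 against 8 weeks (median 0.20), led by F13a1 (factor XIII A, 40.1 CPM), Ccr2 (2.62 CPM) and Ms4a4c (0.334 CPM). Of the macrophage list 7 of 8 were tested, 3 fitted higher and 4 lower (median -0.07), led by Csf1r (35.4 CPM), C1qa (34.5 CPM) and C1qb (30.6 CPM). Of the lymphocyte list 4 of 12 were tested, 3 higher and 1 lower (median 0.11), led by Cd4, Cd79b and Ms4a1. Of the list of eosinophils, basophils and mast cells 3 of 7 were tested, 2 higher and 1 lower (median 0.8), led by the mast cell proteases Mcpt4 (1.73 CPM), Cma1 and Cpa3. Of the platelet list 3 of 6 were tested, all lower (median -0.23), led by Pf4, Ppbp and Itga2b. Of the red cell list 3 of 5 were tested, 1 higher and 2 lower (median -0.27), led by Hba-a1, Hbb-bt and Alas2. In these lists 0 genes were called in heart at 12 against 8 weeks. The defining genes of each tissue stood where they should: Myh6 averaged 23300 CPM in heart and Slc34a1 5400 CPM in kidney, and Alb averaged 71800 CPM in liver.

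The pattern of S100a8 over the 12 heart libraries was most like that of Rnf19b (Pearson r = 0.94 of log2 CPM), Retnlg (0.906), Ptbp3 (0.905), Herpud2 (0.893), Hnrnpa0 (0.889), Mettl24 (0.887), Rnf103 (0.881), Akap17a (0.881), Ctu1 (0.88) and Cop1 (0.875). Retnlg was the only neutrophil gene among these 10. S100a9 came at place 28 of 15136 genes (r = 0.843), Cxcr2 at 43 (0.812), Csf3r at 45 (0.81) and Slfn4 at 241 (0.695). Without 10-week replicate 2, Retnlg came at place 22 (r = 0.866), S100a9 at 182 (0.758), Csf3r at 149 (0.77), Cxcr2 at 241 (0.733) and Slfn4 at 964 (0.564), and Herpud2, Hnrnpa0, Akap17a, Ptbp3, Rnf19b and Cop1 stayed among the 10 most alike. The libraries share their age groups and the correlations are given as a description.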

How the data were processed

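Read pairs per gene were deposited by the authors as whole-number counts for each of the 36 libraries, without normalization. The authors examined reads with FastQC 0.11.9, trimmed with cutadapt 4.2 and aligned to GRCm39 with the Ensembl annotation using STAR 2.7.11b, whose gene counting takes only pairs with a single place in the genome. Counts that ignore strand were taken, since 49.82% to 50.24% of stranded counts fell on the first strand. Of 78239 gene identifiers, 78168 matched the GENCODE annotation of the same build, from which symbols, positions and exon lengths were taken.

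CPM are counts scaled to 1000000 counted pairs. The filter asked for 1 age group with a mean count of 10 or higher and with 2 libraries above 0. It left 15137 heart genes, 17649 kidney genes and 14672 liver genes. Ages were compared with edgeR 4.0.16 in R 4.3.3 (TMM factors, a mean per age, glmQLFit and glmQLFTest), and tissues in a model of all 36 libraries and 9 groups with 19716 genes kept. Benjamini-Hochberg adjustment ran over every gene that passed, and a call needed an adjusted p under 0.05. The common biological coefficient of variation came to 0.118 for heart, 0.113 for kidney and 0.206 for liver. The scripts were tested on simulated data, where 75% and 100% of genes changed 2-fold and 4-fold were found in kidney, 63% and 90% in liver, and 84% and 99% between heart and kidney. Of the genes found, 7.89% were unchanged in kidney, 1.29% in liver and 3.68% between heart and kidney. Only 100 genes were changed at each fold, whereas 86.1% of genes were called between heart and kidney in the data. The simulated shares therefore do not describe that comparison.

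The 9 genes and the lists were chosen with earlier results of these data known. The text names the 9 genes, the 3 genes of each other list with the highest mean CPM in heart, any gene of a list called in kidney or liver, and the 10 genes most like S100a8 in heart by Pearson r of log2 CPM with a prior count of 2. Other genes (Mmp8, Clec4e, Cxcl2, Wfdc21, Mpo, Elane, Pglyrp1, Slfn1, Slfn8, Slfn9) were chosen after their values were seen. Some genes of the lists are not reported here by name. Promoter stretches were read from the GRCm39 genome before the main transcript of each gene. Alternatives were limma-voom 3.58.1, DESeq2 1.42.0, RLE factors, no filter, filterByExpr, a replicate block, TMM-scaled CPM and each library left out.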

Additional observations from a re-analysis of the deposited data

Results flagged for a closer look

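In groups of 4 libraries a value stood out where its distance to the nearest other library exceeded, as a share of the range of the group, the 95% critical value of Dixon's test. Chance gives such a value in about 1 of 20 groups if values are independent and normally distributed. Of 45 groups with at least 10 counts, 17 held such a value, always the highest of its group, and 36 groups with fewer counts were not examined. The genes share the same libraries and many counts were low, so the 17 are not set against that share. Some groups reached 10 counts only through the library that stood out, such as Ngp in 8-week liver and S100a9 in 10-week kidney, which favoured such a value.

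Of the values that stood out, 9 lay in 10-week replicate 2 of heart and liver. In heart they were S100a8 (5.24 CPM, other libraries 0.66 to 0.95), S100a9 (4.19 CPM), Retnlg (1.47 CPM) and Slfn4 (1.2 CPM). In liver they were S100a8 (4.79 CPM, other libraries 0.381 to 0.712), S100a9 (4.96 CPM), Retnlg (1.87 CPM), Slfn4 (1.87 CPM) and Cxcr2 (0.743 CPM). The kidney library of the same age and number stood out for S100a9 (0.601 CPM, others 0 to 0.0445).

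In liver 12-week replicate 1 stood out for S100a8 (3.54 CPM, others 0.074 to 0.221), S100a9 (4.65 CPM), Slfn4 (4.48 CPM), Cxcr2 (1.01 CPM) and Csf3r (7.28 CPM, others 0.74 to 1.54), and Retnlg did not. Apart from these libraries, Slfn4 was high in liver 8-week replicate 2 (0.389 CPM, others 0.143 to 0.177), a library with 11 counts of it. Ngp was high in liver 8-week replicate 1 (0.488 CPM, or 12 counts, others 0 to 0.0354), where Camp gave 1 count and Retnlg 0.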

How the results depend on the processing

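The count of 0 members called at each pair of ages in kidney and liver, and for the difference between kidney and liver, held under every alternative run. In heart, 6 genes were fitted lower at 12 against 8 and at 12 against 10 weeks, and 3 under filterByExpr, which tested only 3 of the 6. With each library left out these counts were 4 to 6, as fewer genes passed the filter in some fits, and 0 to 4 of the genes were fitted lower at 10 against 8 weeks. Heart against liver gave 2 calls, 3 without the filter, 1 with limma-voom, 1 with the replicate block, 0 without the 4 highest libraries, and 0 to 2 with each library left out.

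Several fold changes that were not called changed sign. In liver at 12 against 8 weeks, limma-voom gave -0.83 for S100a8 and -0.05 for S100a9, and without the 2 highest liver libraries, an alternative chosen after seeing the data, S100a8 was at -2.14, S100a9 at -1.27 and Csf3r at -0.30. At 10 against 8 weeks the same alternative gave -0.33 and -0.47 for S100a8 and S100a9. With each library left out, the range at 12 against 8 weeks was -2.15 to 1.09 for S100a8, -1.27 to 1.31 for S100a9, -0.98 to 0.47 for Retnlg, -1.32 to 2.86 for Slfn4 and -0.30 to 1.32 for Csf3r, and at 10 against 8 weeks -0.33 to 1.70 for S100a8 and -0.47 to 1.54 for S100a9. In heart against liver it was -0.87 to 0.49 for S100a8, -1.02 to 0.07 for S100a9 and -0.32 to 0.62 for Cxcr2. Cxcr2 was there at 0.08 with limma-voom, and without the 4 highest libraries, again chosen after seeing the data, S100a8 was at 0.65 and S100a9 at 0.26. The cause was not tested.

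The replicate block turned Retnlg in liver at 12 against 8 weeks to 0.03 and Cxcr2 in heart against liver to 0.15. It raised the call count in heart against kidney from 5 to 6 and lowered that in heart against liver from 2 to 1. Over all genes the block moved calls both ways. At 12 against 8 weeks it gave 4 in place of 10 in kidney and 25 in place of 35 in liver, at 10 against 8 weeks 189 in place of 164 and 5 in place of 3, at 12 against 10 weeks 97 in place of 85 and 4 in place of 8, and 105 in place of 60 for kidney minus liver. The block was the replicate number across ages within a tissue, and the library number shared by the 3 organs between tissues. Replicate numbers across ages had a median correlation of deviations between -0.004 and 0.031. Library numbers across organs correlated best with their own number in 12 of 12 cases for liver and kidney, 10 of 12 for heart and kidney and 7 of 12 for heart and liver, which is a hint from the data and not from the design. In the same order, the median correlation was 0.137, 0.108 and 0.067 for equal numbers and -0.046, -0.041 and -0.039 for other numbers of the same age. Only 8, 7 and 5 of the 12 pairs exceeded 0.1. As the labels do not state a pairing, the libraries were treated as independent outside the block. If a number is a mouse, the tests between tissues without the block ignore that pairing.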
